A study of Homo sapiens with 4 samples.

Results

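Disialoganglioside GD2, a sialic acid-bearing glycolipid, is abundant on the surface of neuroblastoma cells. The 9 genes described here encode enzymes that build it, compete for its precursors or carry it further: UGCG, B4GALT5, B4GALT6, ST3GAL5, ST8SIA1, ST8SIA5, B4GALNT1, B3GALT4 and ST3GAL2. They were chosen by name for their place in the pathway, with earlier results of these data known, and make up 9 of the 60612 genes in the count table. Of the 17537 genes with enough counts to be tested, 8 were members. B3GALT4 fell below the filter on low counts.

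RNA sequencing of polyadenylated RNA was available for 4 libraries of IMR-32, an established MYCN-amplified human neuroblastoma line. Per the labels all received doxycycline at 1 µg/mL for 48 h, which induces a stably introduced short hairpin. In 2 libraries the hairpin was a control by the sample titles (shControl), and in the other 2 it targeted NeuroD1 (shNeuroD1, labelled NeuroD1 knockdown). The genotype label of the shControl libraries is WT and the series text speaks of parental cells, so whether these cells carried a control hairpin is not settled, and a difference between the groups may include that of the vector. The labels name neither the NeuroD1 hairpin nor the cultures, so a group's pair of libraries may share a culture. The p-values therefore measure the spread between these libraries, which may be technical, and they refer to 1 cell line.

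Ganglioside synthesis starts from ceramide in the Golgi apparatus, where glucose, galactose and then sialic acid are added in order to give glucosylceramide, lactosylceramide and GM3. A further sialic acid turns GM3 into GD3, the entry to the b-series, and an N-acetylgalactosamine turns GD3 into GD2. The same N-acetylgalactosamine transferase also acts on GM3 to give GM2, so GD3 synthase and GM2/GD2 synthase compete for GM3. GD2 is the target of antibodies used to treat neuroblastoma, and the present data concern the RNA of its enzymes, not the lipid.

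The libraries held between 14665210 and 16482463 counted fragments, with 26071 to 27121 genes detected and 4.37% to 5.51% of counts on mitochondrial genes. NEUROD1 itself was counted 6174 and 6582 times in shControl and 969 and 886 times in shNeuroD1, which left it at 14.6% of the control level (log2 fold change -2.77, SE 0.050). By limma on the deposited FPKM, at log2(FPKM + 1), the NEUROD1 difference was -0.96 and did not pass (adjusted p = 0.291). NEUROD1 shares 236 exon bases with CERKL on the same strand. CERKL also fell, from 813 and 864 counts in shControl to 221 and 236 in shNeuroD1. Whether reads of the shared bases had a part in this was not tested. The 10 adrenergic neuroblastoma markers were all present, with a summed level of 2241 and 2224 CPM (a gene's counts scaled to library size, the usual unit of level in count data) in shControl and 2024 and 1993 in shNeuroD1. Summed mesenchymal neuroblastoma markers were at 476 and 474 CPM in shControl and 802 and 788 in shNeuroD1. Of the 7 tested of 10, VIM, IFI16 and CD44 were higher and TWIST1, SNAI2, FN1 and YAP1 lower, and PRRX1 was at 0 in every library. Fibroblast markers summed to 145 and 149 CPM against 64.2 and 59.7, of which PDGFRA made up most. Of the 4 tested of 6, PDGFRA and COL1A1 were lower and LUM and COL3A1 higher, the last counted 0 and 2 times against 15 and 18 times, while DCN was counted 1 and 5 times against 0. Schwann cell or glial markers summed to between 5.42 and 10.1 CPM, and immune, epithelial and endothelial markers each to under 2 CPM in every library. Their part in the results below was not tested. As these are bulk samples, fewer cells of a kind cannot be told apart from less RNA per cell.

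Binding at the promoters was not analysed here. RefSeq promoter sequences were at hand for 4 members, and they are shown because NeuroD1 is a basic helix-loop-helix factor that binds E-boxes. Each window covers 250 bases before and 25 bases from the transcript start of the GRCh38.p14 annotation, written 5′ to 3′ on the gene's own strand, and capitals mark every match to the E-box CANNTG. ST3GAL5 (chr2:85888966-85889240, minus strand) and B4GALT5 (chr20:49713854-49714128, minus strand) were the members with higher RNA in shNeuroD1. UGCG (chr9:111896564-111896838, plus strand) had lower RNA, and ST8SIA1 (chr12:22334683-22334957, minus strand) is the GD3 synthase gene.
ST3GAL5: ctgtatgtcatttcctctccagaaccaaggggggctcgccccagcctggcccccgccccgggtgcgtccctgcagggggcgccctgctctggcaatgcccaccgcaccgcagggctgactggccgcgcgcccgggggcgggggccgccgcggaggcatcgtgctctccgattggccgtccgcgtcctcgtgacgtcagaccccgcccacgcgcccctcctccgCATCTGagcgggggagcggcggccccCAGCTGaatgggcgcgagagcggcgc
B4GALT5: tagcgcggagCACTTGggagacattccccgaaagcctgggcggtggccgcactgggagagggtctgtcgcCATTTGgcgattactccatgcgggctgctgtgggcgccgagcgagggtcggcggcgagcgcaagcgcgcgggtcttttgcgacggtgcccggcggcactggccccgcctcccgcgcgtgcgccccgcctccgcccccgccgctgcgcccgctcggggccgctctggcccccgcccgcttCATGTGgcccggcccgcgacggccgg
UGCG: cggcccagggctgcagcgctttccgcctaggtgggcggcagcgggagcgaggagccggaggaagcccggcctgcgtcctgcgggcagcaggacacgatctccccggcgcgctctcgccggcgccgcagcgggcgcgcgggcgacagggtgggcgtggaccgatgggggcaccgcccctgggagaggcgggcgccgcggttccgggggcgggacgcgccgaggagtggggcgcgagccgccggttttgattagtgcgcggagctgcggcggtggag
ST8SIA1: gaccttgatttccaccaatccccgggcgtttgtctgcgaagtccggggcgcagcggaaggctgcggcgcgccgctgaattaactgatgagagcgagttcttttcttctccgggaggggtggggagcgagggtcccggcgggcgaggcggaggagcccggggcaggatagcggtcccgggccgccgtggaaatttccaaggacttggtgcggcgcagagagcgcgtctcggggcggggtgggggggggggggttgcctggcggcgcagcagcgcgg

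The ST3GAL5 window held 2 E-boxes, which began 27 bases and 1 base before the start. The one farther from the start reads CAGATG on the opposite strand. The one at the start is a CAGCTG. The B4GALT5 window held 3, beginning 240, 180 and 1 bases before the start, none of which had either of these inner bases. Neither the UGCG nor the ST8SIA1 window held a match. Over 35116 RefSeq promoters of the same length, 65.6% held at least 1 CANNTG, 13.6% held CAGATG on either strand and 16.0% held CAGCTG. Every CANNTG is also one on the opposite strand, and the latter 2 motifs are special cases of it. A match is a description of letters and not a measured binding site. Of the 5 ST3GAL5 starts listed in RefSeq, all of which lie in a transcript start of the deposited event tables, only the one at 85888990 is shown. The other 4 lie only in transcript starts of at most 0.0512 FPKM in any library. The transcript start at 85870072 to 85870239 held 55.0% and 69.4% of the gene's start FPKM in shControl and has no window here. The windows of the other 4 held 1, 2, 0 and 0 matches to CANNTG, and the one shown is the only window with both of the special cases.

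Across the pathway, NeuroD1 knockdown left the RNA of GM2/GD2 synthase close to the control level. No difference was called for GD3 synthase (ST8SIA1). Its confidence interval of -0.37 to 0.21 on the log2 scale still holds a fall the size of that of UGCG (-0.24). Of the other genes, 3 were called lower and 2 higher, all by less than 2-fold. In edgeR's quasi-likelihood test, with p-values adjusted by Benjamini-Hochberg over the whole table, 5 of the 8 tested members passed an adjusted p of 0.05. Of all genes tested, 55.0% passed. UGCG, ST8SIA5 and ST3GAL2 were lower, where 28.2% of all genes were lower. B4GALT5 and ST3GAL5 were higher, where 26.8% of all genes were higher. The calls depended on the test used. In DESeq2's Wald test ST3GAL2 and B4GALT5 passed, and UGCG, ST3GAL5 and ST8SIA5 did not (adjusted p = 0.205, 0.0874 and 0.0519). Scaled by library size alone, 3639 genes were lower and 6114 higher, against 4939 and 4698. None of the 8 also had a log2 fold change beyond 1 in size, which 13.9% of all genes did. The members' median log2 fold change was -0.08 against 0.01 for all genes tested, and the median size of the change was 0.27 for members and 0.34 for all genes. In 7 of 8 members the CPM of the groups did not overlap, as in 76.1% of all genes. These shares are close to the background, so they mark nothing particular to the pathway.

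**Figure D1:**
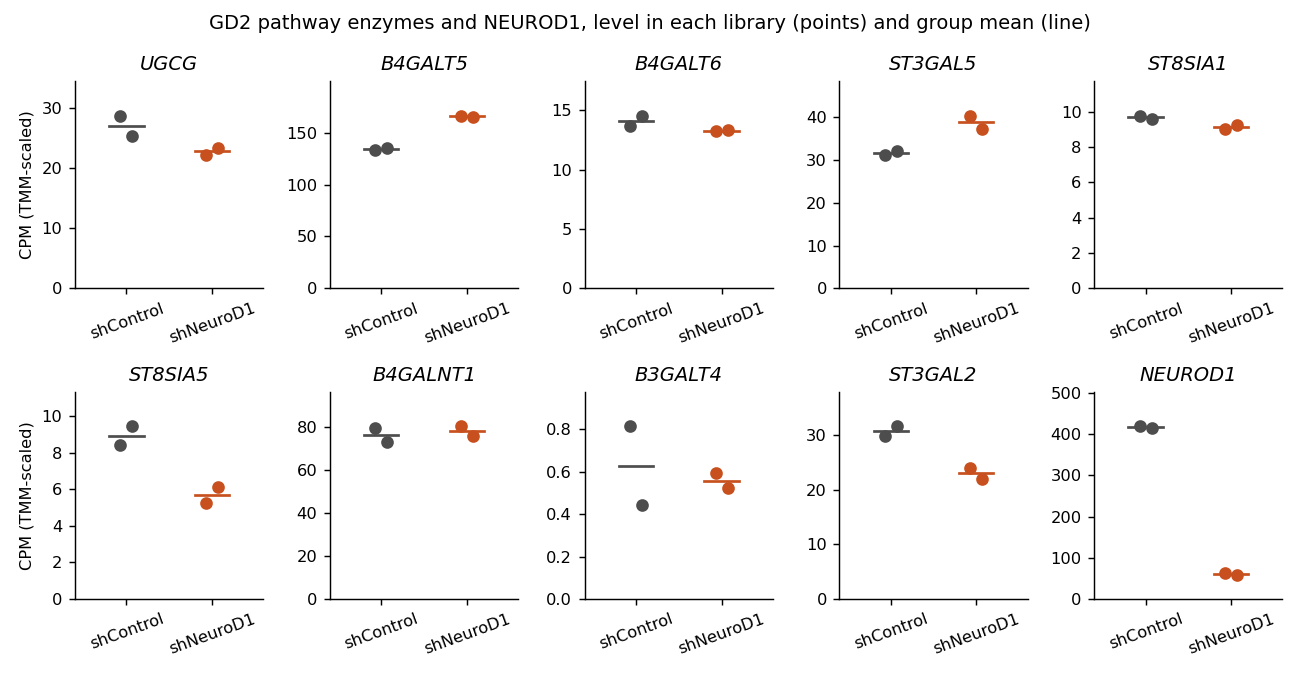
Levels of the 9 enzyme genes and NEUROD1 in CPM (vertical axes from 0), with 1 point per library and a line at the mean of the 2 libraries of each group. The groups overlap for B4GALNT1 and B3GALT4, and NEUROD1 falls from a mean of 417 to 60.9 CPM.

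**Figure D2:**
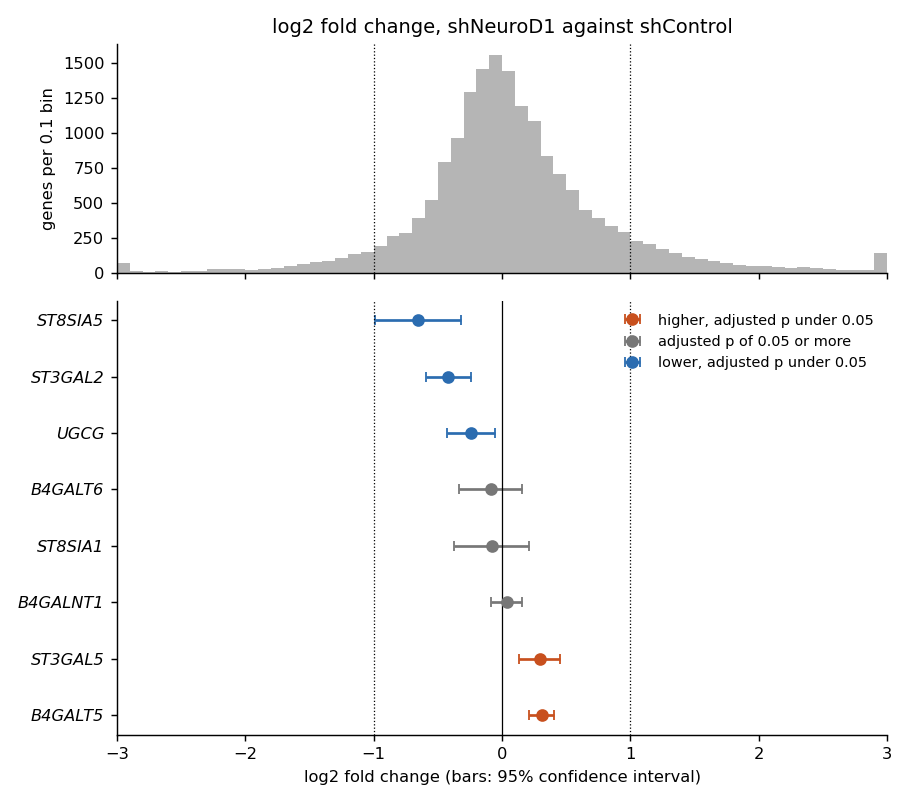
Upper panel, the number of genes per 0.1 of log2 fold change over the 17537 genes tested, where the outermost bins also hold all values beyond them. Lower panel, the log2 fold change of the 8 tested members with its 95% confidence interval, coloured by call, where dotted lines mark a change of 1 and every estimate lies between -0.65 and 0.31.

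UGCG (ENSG00000148154), on chromosome 9 (hg38, 111896766 to 111935369, plus strand), adds glucose to ceramide and so commits it to glycolipids. It was measured at 28.7 and 25.4 CPM in shControl and 22.2 and 23.4 CPM in shNeuroD1 (27.0 ± 2.35 against 22.8 ± 0.82, SD, n = 2 each). Both shNeuroD1 libraries lay below both controls, but the controls were 3.32 CPM apart, beside 4.24 CPM between the group means. The difference was -0.24 on the log2 scale (SE 0.092, adjusted p = 0.0248 in edgeR). Without the first shControl library it was -0.15 (adjusted p = 0.223) and without the first shNeuroD1 library -0.21 (adjusted p = 0.141), so the call depended on single libraries. DESeq2 gave an adjusted p of 0.205, and scaling by library size alone one of 0.228.

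B4GALT5 and B4GALT6 encode the lactosylceramide synthases, which add galactose to glucosylceramide. B4GALT5 (ENSG00000158470), on chromosome 20 (49632945 to 49713878, minus strand), was measured at 133 and 135 CPM in shControl and 167 and 165 CPM in shNeuroD1. The libraries of each group were close to each other, and both shNeuroD1 libraries were above both controls. Its level rose to 1.24 times the control (log2 fold change 0.31, SE 0.046, adjusted p = 1.18e-06 in edgeR), the firmest difference among the members. B4GALT6 (ENSG00000118276), on chromosome 18 (31622247 to 31685836, minus strand), was measured at 13.6 and 14.5 CPM in shControl and 13.2 and 13.3 CPM in shNeuroD1. Its group means lay closer together than the 2 controls did, and the difference did not pass (log2 fold change -0.09, 95% confidence interval -0.33 to 0.16, adjusted p = 0.561 in edgeR). With scaling by library size alone its sign turned, to 0.0245. Per kilobase of exon, the ratio of B4GALT5 to B4GALT6 was 11.0 and 10.4 in shControl against 14.2 and 13.9. B4GALT5 was thus the main lactosylceramide synthase RNA in every library. B4GALT6 shares 107 exon bases with the antisense gene AC017100.1, which had 17 to 28 counts per library.

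ST3GAL5 (ENSG00000115525), on chromosome 2 (85837120 to 85905199, minus strand), encodes GM3 synthase, which adds the first sialic acid to lactosylceramide. It was measured at 31.3 and 32.2 CPM in shControl and 40.4 and 37.3 CPM in shNeuroD1. The controls were close to each other, and both knockdown libraries were higher. Its level rose to 1.22 times the control (log2 fold change 0.29, SE 0.077, adjusted p = 0.00178 in edgeR). Leaving out a library gave log2 fold changes from 0.23 to 0.35, and the adjusted p became 0.0763 without the first shControl library, 0.0588 without the second, and 0.0586 without the first shNeuroD1 library. DESeq2 gave 0.0874.

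ST8SIA1 (ENSG00000111728), on chromosome 12 (22063773 to 22437041, minus strand), encodes GD3 synthase, the step that opens the b-series and supplies the substrate for GD2. It was counted only 144 and 152 times in shControl and 137 and 141 times in shNeuroD1, which is 9.77 and 9.57 CPM against 9.01 and 9.26 CPM. Both knockdown libraries were slightly below both controls, and the difference did not pass. On the log2 scale the difference was -0.08 (SE 0.142, adjusted p = 0.651 in edgeR), with a 95% confidence interval of -0.37 to 0.21, and its sign turned to 0.0299 when libraries were scaled by size alone. CMAS, a gene on the opposite strand that overlaps the end of the ST8SIA1 locus, shares no exon base with ST8SIA1.

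ST8SIA5 (ENSG00000101638), on chromosome 18 (46667821 to 46759257, minus strand), encodes the sialyltransferase that adds a further sialic acid to GD3 and also acts on other gangliosides. Of the members tested it changed most. It was counted 124 and 150 times in shControl and 80 and 93 times in shNeuroD1, equal to 8.41 and 9.45 CPM against 5.26 and 6.11 CPM. All knockdown values were below all control values, and the level fell to 63.6% of control (log2 fold change -0.65, SE 0.165, 95% confidence interval -0.99 to -0.32, adjusted p = 0.00114 in edgeR). Without the second shControl library the log2 fold change was -0.57 (adjusted p = 0.0727), and DESeq2 gave an adjusted p of 0.0519. The gene shares 432 exon bases with AC090241.2 on the opposite strand, which was counted 17 to 36 times per library. Strand use in the counting was not stated, so reads within these 432 of the 15789 exon bases of ST8SIA5 may be shared or lost.

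B4GALNT1 (ENSG00000135454), on chromosome 12 (57623410 to 57633355, minus strand), encodes GM2/GD2 synthase, which adds the N-acetylgalactosamine that makes GD2. It was counted 1175 and 1161 times in shControl and 1224 and 1156 times in shNeuroD1, or 79.7 and 73.1 CPM against 80.5 and 75.9 CPM. The groups overlapped, and the 2 libraries within each group differed by more than the group means did. On the log2 scale the difference was 0.03 (SE 0.059, adjusted p = 0.649 in edgeR). Its 95% confidence interval of -0.09 to 0.15 was the narrowest of the 3 members that did not pass. Scaled by library size alone it was 0.15 (adjusted p = 0.0331), where the median of all genes was also shifted, to 0.12. B4GALNT1 shares 2136 of its 8003 exon bases with SLC26A10 on the opposite strand, and reads within these may likewise be shared or lost. SLC26A10 was counted 197 and 231 times in shControl and 187 and 207 times in shNeuroD1, fewer than B4GALNT1 in every library.

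B3GALT4 and ST3GAL2 act after the GalNAc step. B3GALT4 (ENSG00000235863), on chromosome 6 (33277132 to 33284832, plus strand), adds galactose to GD2 and GM2 to give GD1b and GM1. It was counted 12 and 7 times in shControl and 9 and 8 times in shNeuroD1 (0.627 ± 0.264 against 0.558 ± 0.047 CPM, SD, n = 2 each). The groups overlapped, and at this depth no test was made. ST3GAL2 (ENSG00000157350), on chromosome 16 (70375978 to 70439237, minus strand), adds sialic acid to the terminal galactose of GM1 and GD1b. It was measured at 29.9 and 31.6 CPM in shControl and 24.0 and 22.0 CPM in shNeuroD1. Both knockdown libraries lay below both controls, at 74.9% of the control mean (log2 fold change -0.42, SE 0.088, adjusted p = 0.000146 in edgeR). The call held without each library in turn, with log2 fold changes from -0.48 to -0.36. An antisense gene that shares 590 exon bases with ST3GAL2, AC012184.1, had 0 counts in every library.

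Levels of different genes were compared as CPM per kilobase of annotated exon. In shControl the order was B4GALT5 (28.4 ± 0.26, SD, n = 2), B4GALNT1 (9.55 ± 0.58), UGCG (5.86 ± 0.51), ST3GAL2 (3.15 ± 0.12), B4GALT6 (2.66 ± 0.12), ST3GAL5 (1.94 ± 0.039), ST8SIA1 (0.668 ± 0.0096), ST8SIA5 (0.566 ± 0.046) and B3GALT4 (0.266 ± 0.112). No neighbours in this order overlapped between their 2 control libraries. In shNeuroD1 the middle of the order changed, with B4GALT6 at 2.50 ± 0.016, ST3GAL5 at 2.38 ± 0.14 and ST3GAL2 at 2.36 ± 0.14, where ST3GAL5 (2.48 and 2.29) and ST3GAL2 (2.46 and 2.26) overlapped. This order depends on the exon length used: ST3GAL5 came below ST3GAL2 and B4GALT6 in shControl by this measure and above both by the deposited FPKM of its transcript starts. In shControl both measures put B4GALT5, B4GALNT1 and UGCG first, and ST8SIA1, ST8SIA5 and B3GALT4 were the lowest by CPM per kilobase.

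The balance at the branch points was described by ratios of CPM per kilobase, with no test, chosen after the values were seen. At GM3, ST8SIA1 to B4GALNT1 was 0.0677 and 0.0723 in shControl against 0.0618 and 0.0674, so GD3 synthase RNA was far below GM2/GD2 synthase RNA in every library and the shift between groups was small (-0.12 on the log2 scale). At GD3, B4GALNT1 to ST8SIA5 was 18.7 and 15.3 in shControl against 30.2 and 24.5. This was a shift of 0.69 on the log2 scale, beside -0.65 for ST8SIA5 alone. ST3GAL5 to B4GALNT1 was 0.192 and 0.216 against 0.246 and 0.241, a shift of 0.26. The groups did not overlap in any of these ratios, as the CPM did not in 76.1% of all genes tested.

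**Figure D3:**
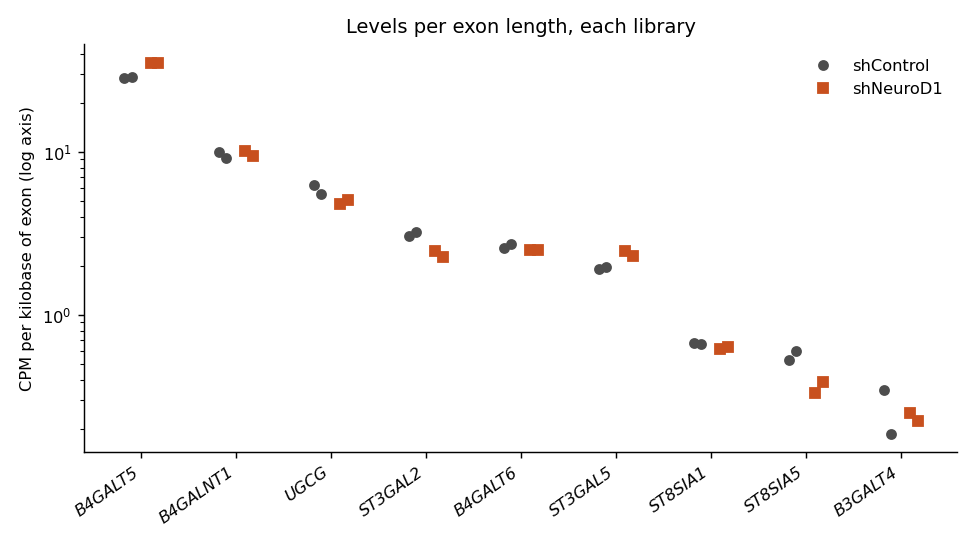
CPM per kilobase of exon (log axis) of the 9 genes in the order of their shControl mean, with circles for the 2 shControl and squares for the 2 shNeuroD1 libraries. B4GALT5 is highest at 28.4 in shControl and B3GALT4 lowest at 0.266, and ST3GAL2, B4GALT6 and ST3GAL5 draw together in shNeuroD1.

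The deposited tables of assembled transcripts gave FPKM values for 178 starts, ends and splicing events of 8 members, of which ST3GAL5 had 107 and B4GALNT1 36. B4GALNT1 used mainly the start at 57632772 to 57633173, at 9.77 and 8.37 FPKM in shControl and 9.77 and 11.5 in shNeuroD1. Its second start, at 57632541 to 57632647, lay 526 bases downstream and had 2.55 and 3.27 FPKM against 1.57 and 2.18. It made up 20.5% and 27.9% of the gene's start FPKM in shControl and 13.7% and 15.8% in shNeuroD1, with no overlap between the groups. The pair of controls differed by more than the distance between the nearest libraries of the 2 groups, and no test was made. B4GALT5 had a single start, at 18.9 and 20.1 FPKM in shControl and 26.7 and 25.1 in shNeuroD1, the same order as its counts.

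ST3GAL5 was spread over several starts, and the assignment differed between libraries of the same group. The upstream start at 85888824 to 85888990, that of the promoter shown above, had 2.12 and 1.40 FPKM in shControl and 1.64 and 2.94 in shNeuroD1. The start at 85870072 to 85870239, 18.8 kb downstream, had 2.59 and 3.21 against 4.61 and 0.366, so the 2 shNeuroD1 libraries lay on either side of the controls. Summed over starts, ST3GAL5 had 4.71 and 4.63 FPKM in shControl and 7.15 and 4.01 in shNeuroD1, and the second shNeuroD1 library was thus below the controls by FPKM and above them by counts. ST3GAL2 also varied within a group: the start at 70398192 to 70400638 had 1.95 FPKM in the first shControl library and 0.0726 in the second. The starts of ST8SIA5 were listed at 0.0251 and 0.0273 FPKM in the second library of each group and not at all in the first ones, although the gene was counted in all 4.

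**Figure D4:**
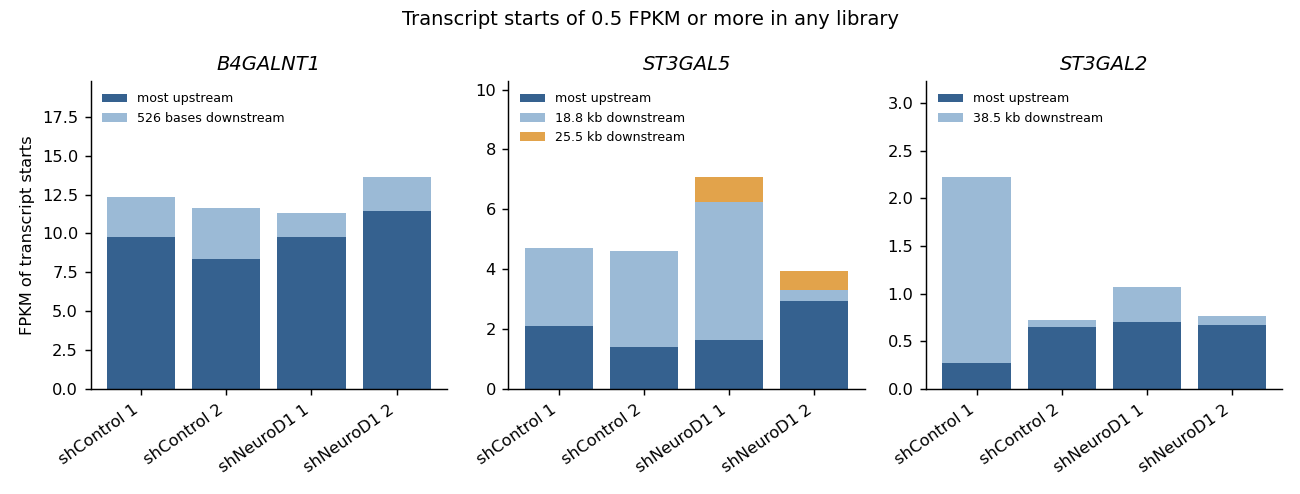
FPKM of the transcript starts of B4GALNT1, ST3GAL5 and ST3GAL2 that reached 0.5 FPKM in any library, stacked for each of the 4 libraries and named by their distance from the most upstream start. The ST3GAL5 start 18.8 kb downstream ranges from 0.366 to 4.61 FPKM within shNeuroD1, and the start 38.5 kb downstream in ST3GAL2 from 0.0726 to 1.95 FPKM within shControl.

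The genes around the pathway were described in 8 lists with 90 different genes, of which 75 were tested. In these 13 were lower and 22 higher, with a median log2 fold change of 0.08. That is 46.7% called, against 55.0% of all genes tested. GAL3ST1 stands in 2 of the lists and was not tested. Genes of ceramide supply were mostly without a call, with 4 lower and 1 higher of 14 tested. SPTLC1, a subunit of the serine palmitoyltransferase that starts ceramide synthesis, was at 74.6 and 73.9 CPM in shControl and 46.0 and 50.4 in shNeuroD1 (log2 fold change -0.62). CERS4, a ceramide synthase, moved the other way, with 35 and 65 counts against 96 and 87 (log2 fold change 0.88). Of the genes for other fates of ceramide and for glucosylceramide transfer, 2 were lower and 1 higher of 6 tested. Among the branches that take lactosylceramide elsewhere only B3GNT5, which starts the lacto-series, had enough counts, and its log2 fold change of -0.05 did not pass.

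UGP2, which makes the UDP-glucose that UGCG uses, was measured at 60.1 and 56.9 CPM in shControl, and at 17.9 and 21.3 CPM with the knockdown. The level fell by 1.58 on the log2 scale (SE 0.082, adjusted p = 4.62e-17 in edgeR), and both knockdown libraries lay far below the controls. SLC35A2, which carries UDP-galactose into the Golgi, was counted 236 and 302 times in shControl against 489 and 483 times in shNeuroD1 (log2 fold change 0.86). Of the 10 nucleotide sugar genes tested, 3 were lower and 3 higher. Sialic acid supply and modification had 1 lower and 3 higher of 7 tested. SIAE, which removes O-acetyl groups from sialic acid, rose from 1.70 and 2.02 CPM to 4.54 and 3.68 CPM (log2 fold change 1.14, SE 0.261, adjusted p = 0.000418 in edgeR).

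Other sialyltransferases had 2 lower and 3 higher of 13 tested. ST6GALNAC5, which adds sialic acid to N-acetylgalactosamine of gangliosides to make the alpha-series, was at 93.9 and 89.6 CPM in shControl and 16.8 and 16.1 in shNeuroD1. The level fell by 2.48 on the log2 scale (SE 0.073, adjusted p = 1.70e-23 in edgeR), beside -0.65 for ST8SIA5, the lowest of the 8 tested members. Of the relatives of ST8SIA1, the polysialyltransferase gene ST8SIA2 (log2 fold change -0.12) and ST8SIA3 (-0.03) did not pass. ST8SIA4, another polysialyltransferase gene, was higher, with 104 and 120 counts in shControl against 191 and 139 (log2 fold change 0.57, adjusted p = 0.00289 in edgeR). DESeq2 called no gene of this list higher. Of the other B4GALT and B3GALT family genes, 1 was lower and 4 higher of 10 tested. The lower one was B3GALT2, a galactosyltransferase of glycoprotein and glycolipid chains, at 21.0 and 22.3 CPM in shControl and 8.35 and 7.49 in shNeuroD1 (log2 fold change -1.45, SE 0.122, adjusted p = 7.61e-12 in edgeR).

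The list of ganglioside breakdown genes also holds genes for the breakdown of other sphingolipids, such as GALC, ASAH1 and SMPD1. In this mixed list 7 of 14 tested were higher, and the other 7 had no call, with a median log2 fold change of 0.19. Of all genes tested, 26.8% were higher. The count was 4 with no filter on low counts, 3 in DESeq2 and 0 in limma on log2(FPKM + 1). Over all genes the calls of higher RNA fell as well in these settings, from 4698 to 3776, 2757 and 246. Leaving out 1 library gave list medians from 0.16 to 0.21. PSAP, the precursor of the saposins that present glycolipids to lysosomal enzymes, was counted 3801 and 3935 times in shControl against 5495 and 5281 times in shNeuroD1 (log2 fold change 0.49). HEXA, a subunit of the hexosaminidase that removes N-acetylgalactosamine from GM2, had 641 and 721 counts against 897 and 940 (log2 fold change 0.44). GALC, GLB1, ASAH1 and SMPD1 also rose, with log2 fold changes from 0.21 to 0.47. NEU3, a sialidase of the plasma membrane that acts on gangliosides, did not pass (log2 fold change -0.05). None of the 7 was beyond a log2 fold change of 1. Genes named in these lists with smaller changes were chosen after their values were seen.

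**Figure D5:**
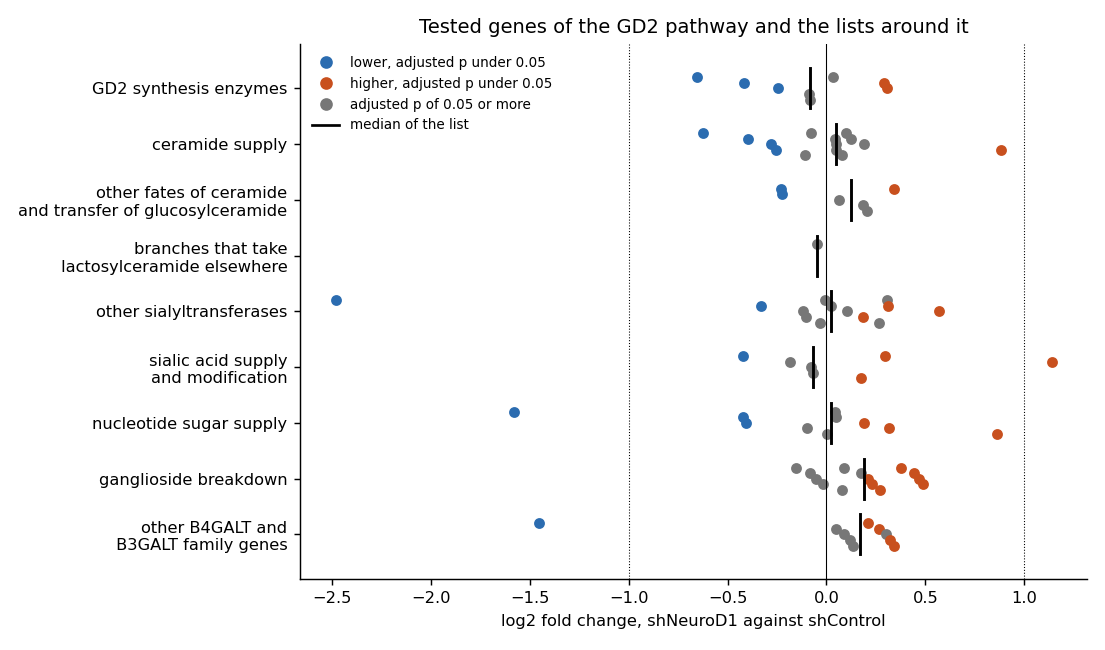
Log2 fold change of each tested gene (1 point per gene, spread vertically for legibility), coloured by call, for the GD2 synthesis enzymes and the 8 lists around them, with a black line at each list's median. Points beyond the dotted lines at -1 and 1 are ST6GALNAC5, UGP2, B3GALT2 and SIAE, and no GD2 synthesis enzyme lies there.

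By the distance between log2 CPM centred over the 4 libraries, the genes nearest to B4GALNT1 among 10559 genes of at least 10 CPM were POLRMT, ANAPC13 and ATP5F1E, with log2 fold changes of 0.03, 0.02 and 0.04. Those nearest to ST8SIA1 among 10560 were CLPX, ALAS1 and CLINT1, with -0.09, -0.09 and -0.08. None of the 6 passed. With 4 libraries and small differences, a close pattern here means only values near the control level in the same libraries.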

How the data were processed

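Per the labels, the 4 libraries were poly(A) RNA of IMR-32 cells (the protocol also names an rRNA removal kit), sequenced as read pairs. The authors deposited 1 table of raw counts per Ensembl gene and, for each library, FPKM values of transcript starts, ends and splicing events in assembled transcripts, which list an event only above 0. The submitters' processing notes name cutadapt 1.9.1, HISAT2 2.0.1, HTSeq 0.6.1, DESeq2 and hg38. Strand use in counting and the annotation release were not given in the sources used here, so overlapping genes on either strand may share or lose reads. Counting of reads without molecular identifiers leaves counting error as the floor of precision.

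Groups and replicate numbers came from the sample titles. Gene IDs were matched to symbols (60401 of 60612), and exon lengths and overlaps came from GENCODE release 29 (58394 matched). Counts were tested with edgeR 4.0.16 in R 4.3.3 (quasi-likelihood F test, group as the only term, TMM scaling, filterByExpr with a minimum count of 10), with p-values adjusted by Benjamini-Hochberg over every gene tested, a threshold of 0.05, with and without a log2 fold change beyond 1. SE is the absolute log2 fold change divided by the square root of F, and confidence intervals are 95%. CPM are TMM-scaled. Gene FPKM is the sum over transcript starts. Alternatives were DESeq2 1.42.0, limma 3.58.1 on log2(FPKM + 1) and log2(FPKM + 0.1) where the mean was 1 FPKM or more, other scalings and filters, a replicate block and each library left out. The scripts were tested on simulated data.

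The members and lists were chosen with earlier results of these data known. Named beside the members are NEUROD1, up to 4 genes per list with the largest change past both thresholds, the 3 genes nearest to B4GALNT1 and to ST8SIA1 (of at least 10 CPM), and overlapping genes. Other list genes and markers named in the text were chosen after their values were seen. Ratios between members and a floor of 0.5 FPKM for events listed in 1 group were chosen after seeing the data. The values of 1 list gene are not reported here.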

Additional observations from a re-analysis of the deposited data

Results flagged for a closer look

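The event tables, which the tests on counts do not use, listed 8 ST3GAL5 events at 0.5 FPKM or more in both shNeuroD1 libraries and in neither shControl library. They came up as a signal in data outside the main measurement that was absent from the control samples' tables. Among them were a transcript start on chromosome 2 at 85863362 to 85863464, with a mean of 0.732 FPKM (0.841 and 0.624), and a transcript end at 85844407 to 85844554, with a mean of 0.727 FPKM. Of the 6 splicing events, 4 had a mean of 0.727 FPKM and 2 had a mean of 0.742 FPKM. Their values are nearly equal and lie along the same gene, so they are given as 1 observation. No member event met the reverse rule, and over all 183841 events 1804 were listed in shNeuroD1 alone and 1168 in shControl alone by this rule. With 2 libraries per group the difference was not tested, and the ST3GAL5 events of these tables varied within groups as described above.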

How the results depend on the processing

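Of the 5 members with a call, B4GALT5 and ST3GAL2 passed under 10 of 12 alternatives each, ST8SIA5 under 8 of 10, ST3GAL5 under 6 of 12 and UGCG under 5 of 12, all with the direction kept. B4GALT6 and ST8SIA1 never passed. Scaling by library size alone moved the median of all genes from 0.01 to 0.12 on the log2 scale and the counts of lower and higher genes from 4939 and 4698 to 3639 and 6114. In it UGCG was -0.13 (adjusted p = 0.228), B4GALNT1 0.15 (adjusted p = 0.0331), B4GALT6 0.0245 and ST8SIA1 0.0299, the members' median 0.0272, and the pathway lists had 8 lower genes and a median of 0.19. These values are relative to that shift.

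With no filter on low counts, which tests more genes, UGCG was -0.26 (adjusted p = 0.0796), the members' median -0.10, and the lists had 14 higher genes and a median of 0.0651. In DESeq2's Wald test 2757 genes were higher, UGCG was -0.26 (adjusted p = 0.205), ST3GAL5 0.28 (0.0874) and ST8SIA5 -0.67 (0.0519), with 1 member lower and 1 higher, a members' median of -0.10, and 8 lower and 10 higher list genes with a median of 0.0663. On log2(FPKM + 1), limma called 278 genes lower and 246 higher and 0 of 6 members in either direction, with 1 at an unadjusted p under 0.05. There UGCG was -0.16, B4GALT5 0.39, ST3GAL5 0.17 and ST3GAL2 -0.30, with medians of 0.0132 for members and 0.14 for lists and 1 lower and 0 higher list genes. On log2(FPKM + 0.1) it called 257 lower and 206 higher and again 0 members, with 1 at an unadjusted p under 0.05, and gave UGCG -0.19, B4GALT5 0.41, ST3GAL5 0.19, ST3GAL2 -0.46, medians of 0.0111 and 0.17, and 1 lower and 0 higher list genes. ST8SIA1, ST8SIA5 and B3GALT4 were too low in FPKM for these fits, which also missed the targeted gene NEUROD1 (-0.96, adjusted p = 0.291, and -1.08, adjusted p = 0.288). Beside a log2 fold change beyond 1, 902 genes were lower and 1541 higher, 0 members were called either way, and 3 list genes were lower and 1 higher. The cause of these differences was not tested.

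Leaving out 1 library each gave ranges of -0.33 to -0.15 for UGCG, 0.23 to 0.35 for ST3GAL5, -0.77 to -0.55 for ST8SIA5 and -0.0280 to 0.0968 for B4GALNT1, whose sign changed without the second shControl or the first shNeuroD1 library. The members' counts ranged from 2 to 3 lower and 1 to 2 higher, and their median from -0.100 to -0.0681. In the lists 10 to 20 genes were higher, with a median from 0.0368 to 0.0903. In these fits the lone library is assumed to vary like the other group. Same-numbered libraries of the 2 groups shared only a number (correlation of their deviations 0.0158), and the replicate block gave 5000 lower and 4748 higher genes and changed no member's call, with 3 lower and 2 higher. Depth limits ST8SIA1, ST8SIA5 and B3GALT4 most.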
